A study of Mus musculus with 24 samples.

Results

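Doxycycline (DOX) was set against dimethyl sulfoxide (DMSO), the usual solvent control, in mouse leukemia cells with an inducible MLL-AF9 fusion, and the RNA of 3 DOX libraries and 3 DMSO libraries was compared gene by gene. These are 6 of the 24 libraries of a series on leukemia fusions. Members were all entries of the MLL-AF9 expression table with a mean of at least 1 FPKM (fragments scaled to transcript length and to the library's total) over the 6 libraries, which left 10881 of 24340 entries. Of these, 109 were microRNA or small nucleolar RNA (snoRNA) entries and are described apart from the other 10772.

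Both groups were bone marrow-derived cells of the C57BL/6 strain, and their genotype is labelled wild type although they carry the inducible fusion. Both grew in serum-containing medium with stem cell factor (SCF), interleukin 3 and interleukin 6, and total RNA went into the library kit. The labels describe DOX as the agent of on and off experiments. They do not give its dose or duration, the number of clones, the promoter that drives the fusion, or whether DOX turns it on or off. Nothing in them says that the 3 libraries of a group are separate cultures, and the spread on which p-values rest may therefore be a technical one. No cells without the fusion were given DOX in the libraries analysed here, so an effect of the drug itself and an effect through the fusion cannot be told apart.

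MLL-AF9 joins the amino-terminal part of the histone methyltransferase KMT2A (MLL) to AF9, the product of MLLT3. KMT2A brings the fusion to chromatin together with menin, and AF9 binds the histone methyltransferase DOT1L and the super elongation complex, which promote transcription. In leukemia cells the best known targets are the Hoxa genes, above all Hoxa9, and Meis1, which hold myeloid progenitors in an immature, self-renewing state. Neutrophils and monocytes arise from such progenitors, and granule proteins are made in a set order as neutrophils mature, primary granules before secondary and tertiary ones.

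The DOX libraries correlated with each other at r = 0.962 to 0.975 and the DMSO libraries at 0.978 to 0.981, against 0.944 to 0.96 between groups (Pearson, log2 scale, across entries, which are not independent). The absolute depth is unknown. The steps between low FPKM values gave relative depths of 0.301, 0.818 and 1.03 for DOX 1 to 3 and 1, 0.917 and 0.684 for DMSO 1 to 3, so DOX 1 was the shallowest library. A single microRNA entry, Mir6236, held 76.5% to 92.4% of the summed FPKM with DOX and 74% to 86.7% with DMSO. Among the 68 snoRNA entries that passed the filter, DOX 3 had the lowest median, 179.7 FPKM. The median was 1713 and 2064 FPKM in DOX 1 and DOX 2, and 496.5, 812.5 and 370.5 FPKM in DMSO 1 to 3. DOX 3 was the lowest of the 6 libraries for 28 of these entries. Their summed FPKM was 213457, 278237 and 58752 in DOX 1 to 3, and 105969, 100773 and 61051.6 in DMSO 1 to 3.

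Of the entries tested, 1281 (11.8%) passed an adjusted p of 0.05 in limma on log2(FPKM + 1), with Benjamini-Hochberg adjustment over all 10881. With DOX 787 entries were higher (7.23%) and 494 were lower (4.54%). The change was at least 1 on the log2 scale for 213 of those higher and 70 of those lower. Fold changes below are on this scale, as DOX over DMSO, and understate the change of low genes. In 34% of the entries tested the DOX and DMSO libraries did not overlap. Leaving out 1 library gave between 596 (without DMSO 2) and 996 (without DOX 1) calls, and 519 of the 1281 calls held without any 1 of the 6 libraries. The median over all entries was −0.016. Scaling the libraries to equal sums without the small RNA entries moved that median to −0.172 and turned the split to 360 higher and 808 lower. Under that scaling each fold change moves down together, so directions are to be read against this shift. Those sums rest in part on a few abundant entries. Rmrp and Rpph1 together held 20.9%, 19.6% and 12% of them in DOX 1 to 3, and 19.3%, 19.1% and 17.5% in DMSO 1 to 3. Scaling to equal upper quartiles instead gave 785 higher and 504 lower.

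**Figure D1:**
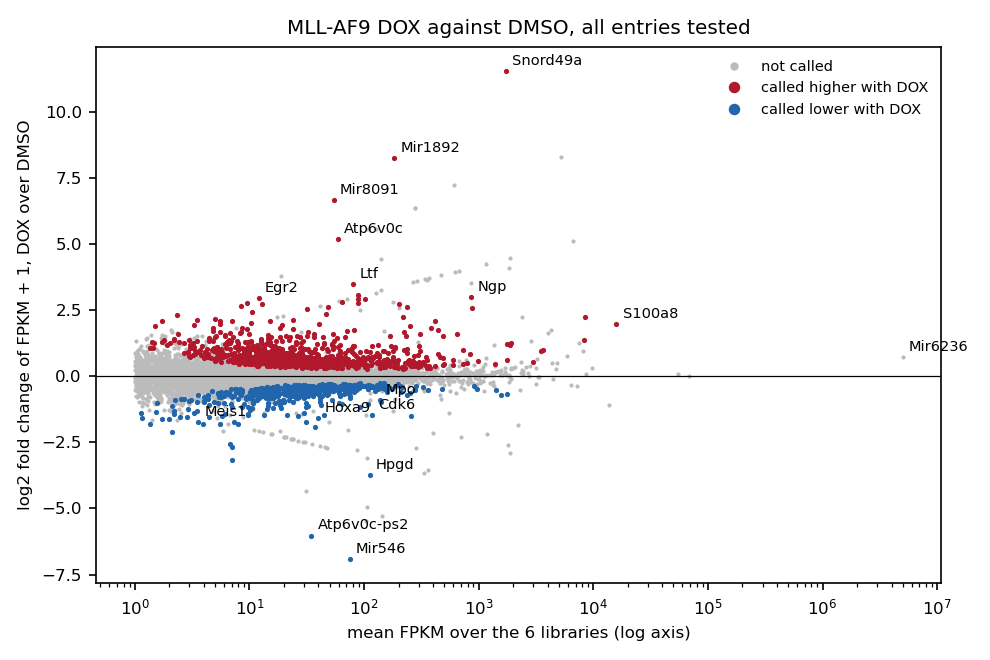
Log2 fold change (FPKM + 1, DOX over DMSO) of the 10881 entries tested, by mean FPKM on a log axis; red points were called higher with DOX, blue points lower and grey points not called. Of the 787 red points 213 lie at 1 or above, of the 494 blue points 70 lie at −1 or below, and the small RNA entries Snord49a, Mir1892, Mir8091 and Mir546 lie far from 0.

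The only link between DOX and the state of the fusion comes from lists of the study. The authors' deposited list of genes down with MLL-AF9 off holds 887 genes, and each of the 887 had a lower mean in the DOX libraries. The test called 427 of the 887 in the authors' deposited list lower (48.1% of the list), and these made up 86.4% of the 494 entries called lower. The authors' deposited list of genes common to all 3 fusions holds 25 genes, all lower with DOX on average, of which 22 were called and 14 kept the call without any 1 library. The study chose both lists on these libraries, so they are not independent evidence of direction. Rhoj, which encodes a small GTPase of the Cdc42 family, is one of the 25, with 26.3, 27.9 and 28.6 FPKM in the DOX libraries, against 56.4, 54.7 and 55.4 FPKM in the DMSO libraries, and fell by 0.98 (adjusted p = 0.000422, limma).

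The host gene of the fusion was lower with DOX. Kmt2a (chr9:44803355-44881274) had 5.74, 5.14 and 5.93 FPKM in the DOX libraries, against 13.5, 14 and 13.6 FPKM in the DMSO libraries. The groups were far apart, and it fell by 1.16 (SE 0.11, adjusted p = 0.00126, limma). The table has no entry for the fusion, so reads of the fusion and of the normal allele cannot be told apart here. Mllt3, the AF9 gene, was low in all libraries, with 4.11, 2.69 and 2.21 FPKM in the DOX libraries, against 3.46, 4.26 and 4.12 FPKM in the DMSO libraries. These groups overlapped and the difference of −0.33 was not called (adjusted p = 0.378, limma).

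Genes for the partners of the fusion were called higher in 10% and lower in 10%, against 7.23% and 4.54% of all entries. Of the 20 genes tested for DOT1L, the super elongation complex and menin, 2 rose and 2 fell, with 1 fall without any 1 library and 1 rise without DMSO 2 or DMSO 3, and Kmt2a is 1 of those that fell. Dot1l, the methyltransferase of histone H3 lysine 79, had 11.6, 12.9 and 15.4 FPKM in the DOX libraries, against 15.9, 16.1 and 14.4 FPKM in the DMSO libraries, and was not called (−0.21, adjusted p = 0.329, limma). Mllt10, the AF10 gene, stood at 16, 17.4 and 16.5 FPKM with DOX, against 15.1, 16.7 and 18.2 FPKM with DMSO, which overlapped. Ell, an elongation factor subunit of the complex, rose by 0.68, with 22.5, 19.1 and 20.4 FPKM with DOX, against 13, 11.7 and 13 FPKM with DMSO. Mllt6, the AF17 gene, rose by 0.77 (adjusted p = 0.0125, limma), and the call was lost without DMSO 2 or DMSO 3 (adjusted p up to 0.0562, limma). For Wdr5, a subunit of the KMT2 complexes, the fall of 0.45 (adjusted p = 0.0498, limma) was not stable: the call was lost without any 1 of the 6 libraries (adjusted p up to 0.12, limma).

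More Hoxa genes and cofactors fell than stayed uncalled, and none rose. Of 17 listed genes 13 were expressed enough to test, and 7 of these fell and 0 rose (5 to 7 without 1 library), with a median of −1.22. Hoxa9 (chr6:52223097-52227370), the central homeobox gene of this leukemia, had 18.9, 16.9 and 23.2 FPKM in the DOX libraries, against 62.5, 57 and 60.8 FPKM in the DMSO libraries. It fell by 1.57 (SE 0.12, adjusted p = 0.000438, limma), a 3.06-fold lower mean. Hoxa7, its neighbour in the cluster, had 6.18, 6.54 and 7 FPKM with DOX, against 21.1, 19 and 20.4 FPKM with DMSO, and fell by 1.48. In both genes the highest DOX library lay below every DMSO library by a wide margin.

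Meis1, the DNA-binding cofactor of HOXA9, was near the filter with DOX. It had 1.72, 0.632 and 1.13 FPKM in the DOX libraries, against 5.56, 6.63 and 5.88 FPKM in the DMSO libraries, and fell by 1.73 (SE 0.23, adjusted p = 0.00426, limma). Pbx3, which encodes a homeobox partner of both, had 12.2, 11.5 and 8.94 FPKM with DOX, against 23.8, 29.4 and 26.7 FPKM with DMSO, and fell by 1.22. Pbx2, from the same family, had 17.1, 18.7 and 17.6 FPKM with DOX, against 15.2, 13 and 13 FPKM with DMSO, a difference of 0.36 that was not called (adjusted p = 0.0668, limma). Hoxa11 fell by 1.43 from low levels, with means of 0.723 ± 0.203 FPKM with DOX and 3.66 ± 0.728 FPKM with DMSO (SD, n = 3 each).

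Hoxa10 and Hoxa5 separated less clearly. Hoxa10 had 12.6, 14.8 and 20.2 FPKM in the DOX libraries, against 22.2, 23.6 and 31.6 FPKM in the DMSO libraries, so that the groups did not overlap but the spread was wide, and its difference of −0.68 was not called (adjusted p = 0.0655, limma). Hoxa5 had 0.806, 4.75 and 4.24 FPKM with DOX, against 12.9, 10.6 and 11 FPKM with DMSO, and fell by 1.71 (adjusted p = 0.039, limma). Its locus in the table is shared by 6 entries, and the call was lost without DOX 3, DMSO 1, DMSO 2 or DMSO 3 (adjusted p up to 0.132, limma). Mira (chr6:52214492-52215288), a long noncoding RNA transcribed beside Hoxa7, had 11.4, 18.4 and 15.3 FPKM in the DOX libraries, against 58.8, 60.4 and 59 FPKM in the DMSO libraries. It fell by 1.94 (adjusted p = 0.000547, limma), more than Hoxa7 or Hoxa9 on this scale.

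**Figure D2:**
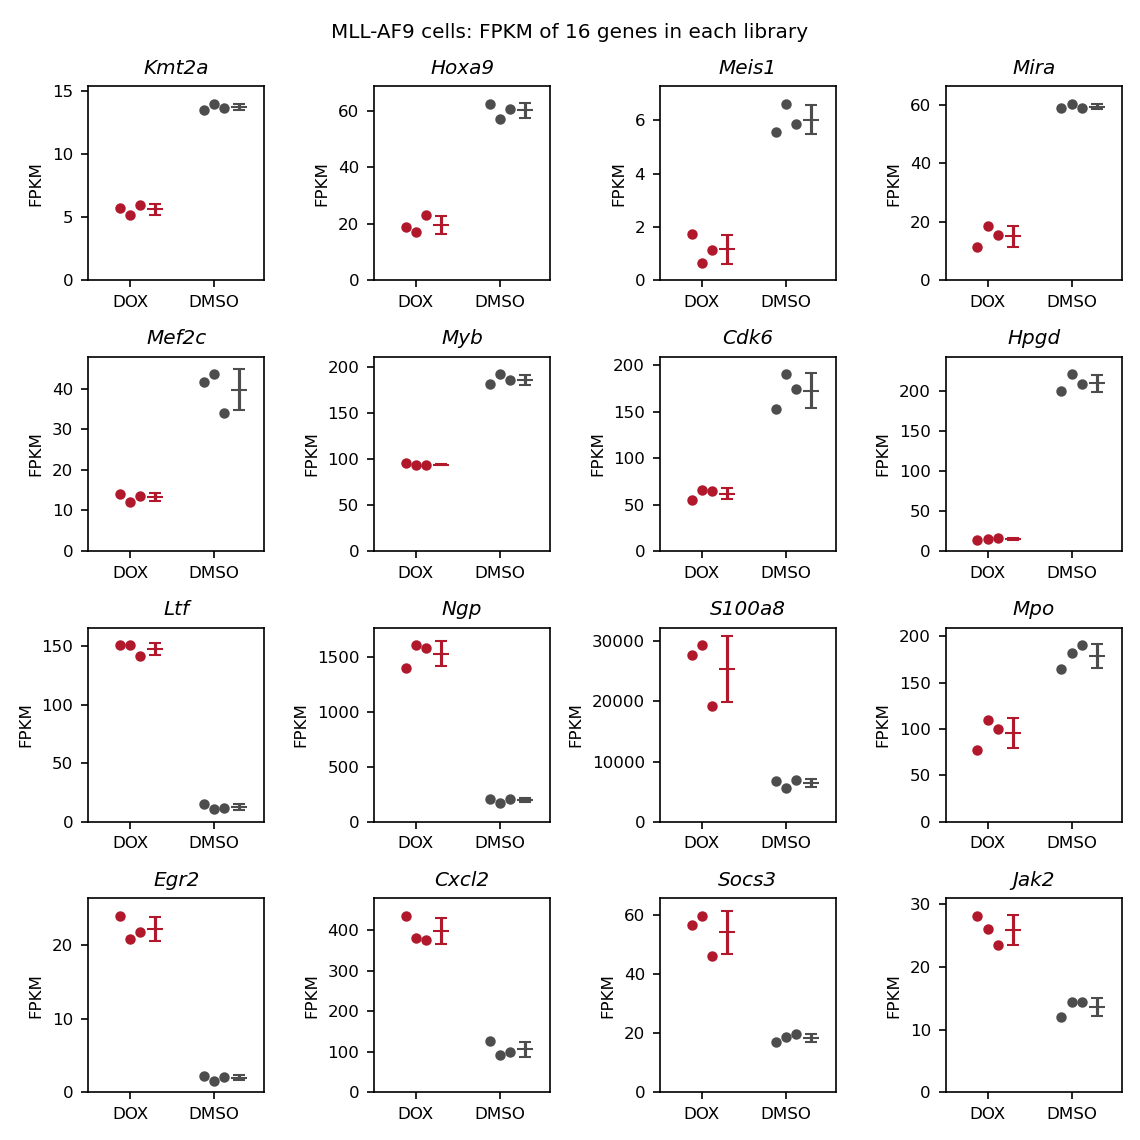
FPKM of 16 genes in each library, DOX on the left and DMSO on the right; points are libraries and bars are mean ± SD (n = 3 each). In all 16 panels the DOX and DMSO libraries do not overlap, for example 16.9 to 23.2 FPKM with DOX and 57 to 62.5 FPKM with DMSO for Hoxa9.

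Transcription factors that maintain self-renewal fell beside the Hoxa genes. Of 13 tested factors of 23 listed, 6 fell and 0 rose (4 to 6 without 1 library). Myb, which AML cells need to proliferate, was even within each group, with 95.3, 93.6 and 93.4 FPKM in the DOX libraries, against 181, 192 and 186 FPKM in the DMSO libraries. It fell by 0.98 (SE 0.06, adjusted p = 0.000266, limma). Mef2c, a MADS-box factor of early lymphoid and myeloid progenitors, had 14.2, 12.1 and 13.5 FPKM with DOX, against 41.8, 43.6 and 34 FPKM with DMSO, and fell by 1.51. Lmo2, the LIM-domain bridge of hematopoietic factor complexes, had 189, 182 and 176 FPKM with DOX, against 296, 292 and 299.8 FPKM with DMSO, and fell by 0.7. All 3 were expressed well above the filter and were separated between groups.

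Mecom, which encodes EVI1, was low in both groups, with 1.28, 0.706 and 0.841 FPKM with DOX, against 4.95, 3.43 and 5.96 FPKM with DMSO, and fell by 1.56 (adjusted p = 0.00783, limma). Myc was not called: it had 108, 123 and 136 FPKM in the DOX libraries, against 142, 139 and 142 FPKM in the DMSO libraries, a difference of −0.21 (adjusted p = 0.199, limma). Of 15 tested progenitor surface genes 2 fell and 3 rose, with 1 fall without DOX 2, DOX 3, DMSO 2 or DMSO 3. The progenitor marker Cd34 fell by 1.03 with 4.18, 2.64 and 2.8 FPKM with DOX, against 6.26, 7.44 and 8.93 FPKM with DMSO (adjusted p = 0.0176, limma), and the call was lost without DOX 2, DOX 3, DMSO 2 or DMSO 3 (adjusted p up to 0.074, limma). Spn, the sialoglycoprotein CD43, fell by 0.49.

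Among G1 regulators Cdk6 changed by more than any other gene of its list. It encodes the cyclin-dependent kinase that D cyclins activate in hematopoietic cells, and had 54.8, 65.5 and 65 FPKM in the DOX libraries, against 153, 190.3 and 175 FPKM in the DMSO libraries, and fell by 1.47 (SE 0.11, adjusted p = 0.000418, limma). Its paralog Cdk4 had 124, 138 and 154 FPKM with DOX, against 162, 160.0 and 169 FPKM with DMSO, a difference of −0.24 that was not called. Of 20 tested genes for D cyclins, their kinases and inhibitors, 3 fell and 5 rose. The number that rose was 1 to 3 without any 1 library other than DOX 1 (1 without DMSO 3) and 0 with equal-sum scaling. The number that fell was 1 without DOX 3, DMSO 2 or DMSO 3, 2 without DOX 1, and 3 with equal-sum scaling. Ccnd3, the D cyclin that partners CDK6 in many blood cells, rose by 0.62 with 134, 140.4 and 147 FPKM with DOX, against 89.3, 83 and 102 FPKM with DMSO. The inhibitor Cdkn1a (p21) rose by 0.47 (adjusted p = 0.0161, limma), and the call was lost without DMSO 3 (adjusted p = 0.0548, limma).

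The largest falls outside these programs belonged to genes of quite different roles. The 12 largest falls were taken from 424 called genes with separate groups and a mean of at least 10 FPKM in 1 group. Hpgd (chr8:56294552-56321046), which encodes the enzyme that inactivates prostaglandins by oxidizing the 15-hydroxyl group, had 13.4, 15.4 and 15.6 FPKM in the DOX libraries, against 199.6, 221 and 209 FPKM in the DMSO libraries. Its mean was 14.2-fold lower, and the fall of 3.74 (SE 0.09, adjusted p = 3.84e-06, limma) had the smallest adjusted p of all entries. Cmklr1, the receptor of the chemoattractant chemerin, had 1.02, 1.32 and 1.34 FPKM with DOX, against 10.8, 10.4 and 16.2 FPKM with DMSO, and fell by 2.57. Car4, a membrane-anchored carbonic anhydrase, had 116, 144 and 142 FPKM with DOX, against 435, 335 and 380.0 FPKM with DMSO, and fell by 1.51. For these 3 genes every DOX library was well below every DMSO library.

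C2cd4a, a C2-domain gene, had 1.17, 0.432 and 0.344 FPKM with DOX, against 12, 12.7 and 16 FPKM with DMSO, and fell by 3.17. Sgip1, which encodes an adaptor of clathrin-mediated endocytosis, had 14.9, 10.9 and 16.4 FPKM with DOX, against 48.5, 52 and 44.9 FPKM with DMSO, and fell by 1.73. Tctex1d1, a dynein light chain family gene with which Sgip1 shares its locus in the table, had 0.794, 2.34 and 0.696 FPKM with DOX, against 12.3, 12.8 and 13.5 FPKM with DMSO, and fell by 2.68. The noncoding RNA Lincppara had 2.1, 2.7 and 3.99 FPKM with DOX, against 15.2, 14.5 and 9.24 FPKM with DMSO, and fell by 1.83. Each of these 4 was called at an adjusted p of 0.00426 or lower (limma) and stayed called without any 1 library.

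Counts for neutrophil granule genes differed by granule type. Of 12 tested primary granule genes (14 listed) 4 fell and 2 rose, whereas of 34 tested secondary and tertiary granule genes (37 listed) 26 rose and 1 fell, with a median of 1.33. The count of rises was 23 to 26 without 1 library and 25 with equal-sum scaling, against 7.23% of all entries called higher. Leaving out DMSO 3 left 2 of the 4 primary granule falls. The difference between the 2 lists was not tested.

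Among primary granule genes Mpo, the myeloperoxidase that makes hypochlorous acid, had 77.8, 110.1 and 99.6 FPKM in the DOX libraries, against 164, 182 and 190.4 FPKM in the DMSO libraries. It fell by 0.91 (SE 0.13, adjusted p = 0.00601, limma). Ctsg, the serine protease cathepsin G, had 1140.0, 1072 and 1328 FPKM with DOX, against 1915, 1944 and 1986 FPKM with DMSO, and fell by 0.73. Elane, neutrophil elastase, was among the 10 most abundant entries, with 3997, 4547 and 4214 FPKM with DOX, against 4397, 4460.2 and 4922 FPKM with DMSO, and was not called (−0.11). Prtn3, proteinase 3, had 1587, 1847 and 1689 FPKM with DOX, against 1854, 1937 and 2204 FPKM with DMSO, and was not called either (−0.23, adjusted p = 0.283, limma). Both lie in 1 merged locus that the table gives to many neighbouring genes. Prss57, a serine protease gene in that merged locus, moved the other way. Its rise of 1.33 (adjusted p = 0.00226, limma) was the largest change of the primary granule list. Ctsc, the dipeptidyl peptidase that activates these serine proteases, rose as well, by 0.95 with 204, 179 and 209 FPKM with DOX, against 108, 103 and 93.7 FPKM with DMSO.

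In the secondary granules Ltf, the iron-binding protein lactoferrin, had 151, 151 and 142 FPKM in the DOX libraries, against 15.2, 10.6 and 11.9 FPKM in the DMSO libraries. Its mean was 11.7-fold higher, a rise of 3.47 (SE 0.13, adjusted p = 2.46e-05, limma). Ngp, the neutrophilic granule protein, had 1403, 1609 and 1583 FPKM with DOX, against 205, 172 and 205 FPKM with DMSO, and rose by 2.98. Lcn2, the siderophore-binding lipocalin, had 322, 340.0 and 387 FPKM with DOX, against 43.1, 50.4 and 65.8 FPKM with DMSO, and rose by 2.71. For these 3 genes the lowest DOX library was several times the highest DMSO library. Pglyrp1, a peptidoglycan recognition protein, had 152, 159.9 and 154 FPKM with DOX, against 15.3, 23.1 and 22.4 FPKM with DMSO, and rose by 2.9.

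Surface and secreted proteins of maturing neutrophils rose too. Cd177, a neutrophil glycoprotein, had 126, 128 and 128 FPKM in the DOX libraries, against 39.8, 37.4 and 36 FPKM in the DMSO libraries, and rose by 1.73 (SE 0.07, adjusted p = 3.24e-05, limma). Retnlg, a resistin-like secreted protein, had 163, 151 and 152 FPKM with DOX, against 25.1, 18.6 and 23.4 FPKM with DMSO, and rose by 2.75. Itgam, the integrin CD11b shared by neutrophils and monocytes, had 306, 312 and 307 FPKM with DOX, against 175, 152 and 175 FPKM with DMSO, and rose by 0.88. Slpi, the secretory leukocyte protease inhibitor, was the only gene of the list called lower, by 0.69 with 1415, 1462 and 1228 FPKM with DOX, against 2356, 2052 and 2194 FPKM with DMSO, and the call was lost without DMSO 1 or DMSO 3 (adjusted p up to 0.0567, limma). Hp, haptoglobin, was not called, with 968, 1036 and 912 FPKM with DOX, against 1089, 1118 and 1152 FPKM with DMSO. The collagenase Mmp8 was tested and stood at 6.6, 11.3 and 11.9 FPKM in the DOX libraries, against 14.6, 13.6 and 13.2 FPKM in the DMSO libraries.

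Promoters of this list are shown because 26 of its 34 tested members rose. In RefSeq (GRCm38.p6), the 250 bases before the start hold the C/EBP motif TTNNGCAA, read on both strands, for 9 of 30 genes with a listed promoter (30%), against 10.8% of 27025 genes and 8.94% of the 8280 genes tested here that have one. C/EBP factors drive granulocyte maturation. Of the 9 genes with the motif Slpi fell, Mmp8 was not called and the other 7 rose, a share near the 76.5% of all tested members that rose. The windows of Ltf, at chr9:111019042-111019291 on the plus strand, and of Ngp, at chr9:110419558-110419807 on the plus strand, follow from 5′ to 3′ with the motif in capitals.
Ltf: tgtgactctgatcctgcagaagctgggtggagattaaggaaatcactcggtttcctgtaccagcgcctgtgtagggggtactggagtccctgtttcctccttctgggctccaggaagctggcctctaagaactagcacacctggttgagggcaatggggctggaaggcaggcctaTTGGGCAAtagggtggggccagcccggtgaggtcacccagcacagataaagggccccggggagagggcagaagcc
Ngp: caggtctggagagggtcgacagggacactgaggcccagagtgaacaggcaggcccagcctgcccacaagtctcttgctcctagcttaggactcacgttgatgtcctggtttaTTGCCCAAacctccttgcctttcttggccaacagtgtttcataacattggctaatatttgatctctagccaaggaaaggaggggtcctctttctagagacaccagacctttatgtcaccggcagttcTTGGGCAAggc
Ltf has 1 match, which starts 75 bases from the window's end, and Ngp has 2, at 138 and 11 bases. A match is a description of letters and not of binding. Of 11 primary granule promoters 0 held the motif.

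The calcium-binding calprotectin genes took a larger share of the FPKM with DOX. S100a8 had 27720.2, 29348 and 19205 FPKM in the DOX libraries, against 6713, 5597 and 6993 FPKM in the DMSO libraries and S100a9 had 14981, 15484 and 11575 FPKM with DOX, against 3301, 2570.3 and 3014 FPKM with DMSO. Together they held 5.68%, 5.92% and 4.85% of the FPKM outside microRNA and snoRNA entries in DOX 1 to 3. In DMSO 1 to 3 they held 1.55%, 1.33% and 1.58%. The FPKM so summed includes Rmrp and Rpph1. S100a8 rose by 1.96 (adjusted p = 0.00547, limma) and S100a9 by 2.24. Of 8 tested S100 genes 5 rose, S100a6 by 1.82 among them. Stefins are cytosolic inhibitors of cysteine cathepsins whose mouse genes form a cluster of close copies, which can share reads. Of 8 tested stefin and cystatin genes 5 rose: Stfa2 had 178, 176 and 125 FPKM with DOX, against 12.9, 24.1 and 18.9 FPKM with DMSO (3.06), and Stfa2l1 had 166, 188 and 192 FPKM with DOX, against 19.2, 25.1 and 25.3 FPKM with DMSO (2.93).

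Lineage factors changed selectively. Of 23 tested factors 8 rose (6 to 8 without 1 library, and 5 with equal-sum scaling) and 2 fell (0 without DMSO 2, and 1 without DOX 2, DOX 3 or DMSO 3). Cebpe, the C/EBP factor needed for secondary granules, had 67.8, 83 and 66.7 FPKM in the DOX libraries, against 38.1, 28.2 and 29.3 FPKM in the DMSO libraries, and rose by 1.17 (SE 0.14, adjusted p = 0.00277, limma). Irf4, which promotes macrophage and dendritic fates, had 6.93, 8.32 and 8.81 FPKM with DOX, against 1.36, 1.98 and 1.33 FPKM with DMSO, and rose by 1.82. Rara, the retinoic acid receptor, had 22.6, 21.8 and 20.3 FPKM with DOX, against 9, 6.15 and 9.75 FPKM with DMSO, and rose by 1.3. Spi1, which encodes PU.1, and Cebpb were not called, with 257, 276 and 220.4 FPKM with DOX, against 231, 222 and 246 FPKM with DMSO for Spi1. Ikzf1 fell by 0.42 and Etv6 by 0.58. For Ikzf1, the call was lost without DOX 2, DOX 3, DMSO 2 or DMSO 3 (adjusted p up to 0.0928, limma), and for Etv6, the call was lost without DMSO 2 (adjusted p = 0.0536, limma).

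Monocyte and macrophage genes rose in part. Of 29 tested genes (37 listed) 14 rose and 0 fell, 11 to 13 without 1 library and 9 with equal-sum scaling. Msr1, a scavenger receptor for modified lipoproteins, had 67.4, 61.7 and 67.4 FPKM in the DOX libraries, against 18.3, 15.1 and 15 FPKM in the DMSO libraries, and rose by 1.96 (SE 0.1, adjusted p = 8.58e-05, limma). Lpl, lipoprotein lipase, had 345, 351 and 336 FPKM with DOX, against 128, 113 and 119 FPKM with DMSO, and rose by 1.51. Lyz2, lysozyme, was among the most abundant entries, with 11465, 12132 and 12060.0 FPKM with DOX, against 5186, 3842 and 4919 FPKM with DMSO, and rose by 1.37. F13a1, a coagulation transglutaminase of monocytes, did not move with them: it had 192, 197 and 188 FPKM with DOX, against 194, 185 and 200.3 FPKM with DMSO (−0.01, not called). The lipopolysaccharide co-receptor Cd14 had 167, 184 and 161 FPKM with DOX, against 187, 156 and 163 FPKM with DMSO, also not called. The monocyte marker Cx3cr1 was low and lay lower with DOX, at 2.66, 2.24 and 2.22 FPKM, against 3.32, 2.87 and 3.01 FPKM with DMSO. The macrophage marker Mrc1 had 4.49, 4.27 and 3.71 FPKM with DOX, against 3.81, 3.12 and 3.14 FPKM with DMSO, which overlapped.

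Pattern receptors of the C-type lectin family were higher with DOX in 10 of 15 tested genes, and 0 were lower. That count was 6 without DMSO 2. Clec4n, which encodes Dectin-2, had 99.4, 92.8 and 110.2 FPKM in the DOX libraries, against 39.2, 30.6 and 36.8 FPKM in the DMSO libraries, and rose by 1.48 (adjusted p = 0.000438, limma). Clec4d, from the same cluster, had 101, 125 and 112 FPKM with DOX, against 56, 43.4 and 51.4 FPKM with DMSO, and rose by 1.15. Among Fc receptors and their ITAM signalling partners, 11 of 22 tested rose (10 to 12 without 1 library). The inhibitory receptor Lilrb4a had 396, 390.3 and 448 FPKM with DOX, against 207, 176 and 179 FPKM with DMSO, and rose by 1.13. Of the 8 genes of the NADPH oxidase, which makes superoxide in phagosomes, 3 rose (1 with equal-sum scaling). Its catalytic subunit gene Cybb had 315, 293 and 282 FPKM with DOX, against 157, 149 and 145 FPKM with DMSO, and rose by 0.97.

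Most of the chemokine ligands tested rose. Of 13 tested chemokine genes 9 rose and 1 fell. The count of rises was 5 without DMSO 3 and 7 to 9 in the other leave-outs. Cxcl2, a neutrophil attractant, had 436, 382 and 376 FPKM in the DOX libraries, against 127, 92.6 and 98.5 FPKM in the DMSO libraries, and rose by 1.91 (SE 0.13, adjusted p = 0.000302, limma). Cxcl3, from the same gene cluster, had 21.5, 25 and 28.6 FPKM with DOX, against 5.98, 5.98 and 3.64 FPKM with DMSO, and rose by 2.09. The monocyte attractants Ccl2 and Ccl7 rose by 1.52 and 1.5, and Ccl2 had 781, 723 and 664 FPKM with DOX, against 283, 227 and 244 FPKM with DMSO. Cxcl10, an interferon-induced attractant of T cells, was the exception, with 3.01, 6.64 and 5.28 FPKM with DOX, against 11.3, 16.8 and 15.9 FPKM with DMSO, a fall of 1.42 (adjusted p = 0.0133, limma). For this gene the call was lost without DMSO 2 or DMSO 3 (adjusted p up to 0.0714, limma).

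Of the 13 chemokine promoters in RefSeq (GRCm38.p6), 5 (38.5%) held the kappaB motif, the site of NF-kB dimers, in the 250 bases before the start, against 4.46% of 27025 genes and 5.24% of the 8280 tested genes that have one. The windows of Cxcl2, at chr5:90903649-90903898 on the plus strand, and Cxcl3, at chr5:90785851-90786100 on the plus strand, are shown. They are the 2 called genes of the list with the smallest adjusted p that hold the motif, in capitals.
Cxcl2: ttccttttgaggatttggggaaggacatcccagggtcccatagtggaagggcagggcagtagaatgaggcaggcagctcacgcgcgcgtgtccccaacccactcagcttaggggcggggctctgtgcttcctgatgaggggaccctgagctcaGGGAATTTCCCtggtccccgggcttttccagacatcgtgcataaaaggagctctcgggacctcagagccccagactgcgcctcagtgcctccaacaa
Cxcl3: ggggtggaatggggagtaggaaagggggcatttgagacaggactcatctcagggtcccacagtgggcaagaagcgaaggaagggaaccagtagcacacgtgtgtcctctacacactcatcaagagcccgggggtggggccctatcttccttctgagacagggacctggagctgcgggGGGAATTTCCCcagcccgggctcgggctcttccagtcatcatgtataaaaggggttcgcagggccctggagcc
In each window 2 overlapping matches, 1 base apart, give the same 11 capital letters. The motif was also in 9 of 25 promoters (36%) of the NF-kB list and 7 of 20 (35%) of the immediate early list. Cxcl10, which fell, holds it as well.

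Interleukin 1 family genes rose in 7 of 20 tested, and 7 were called in each fit without 1 library. Il1f9, which encodes the epithelial and myeloid cytokine IL-36 gamma, had 28, 20.6 and 20.5 FPKM in the DOX libraries, against 3.09, 2.15 and 2.47 FPKM in the DMSO libraries, and rose by 2.75 (adjusted p = 0.000196, limma). The classical cytokine Il1b averaged 12 ± 3.92 FPKM with DOX and 1.97 ± 0.475 FPKM with DMSO (SD, n = 3 each) and rose by 2.09, and Il1a rose by 2.07. Nlrp3, the inflammasome sensor that controls release of IL-1 beta, had 72.1, 71.2 and 74.4 FPKM with DOX, against 39.7, 34.9 and 32.4 FPKM with DMSO, and rose by 1.01. The antagonist Il1rn and the decoy receptor Il1r2 rose with them, by 1.13 and 1.77.

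NF-kB genes rose in 9 of 28 tested (6 to 9 without 1 library, and 5 higher with 1 lower under equal-sum scaling). Nfkbiz, an atypical nuclear inhibitor protein, had 21.7, 14.4 and 19.96 FPKM with DOX, against 8.31, 8.93 and 7.81 FPKM with DMSO, and rose by 1.05. Tnfaip3, the deubiquitinase A20 that restrains the pathway, had 22.9, 18.1 and 20.2 FPKM with DOX, against 9.8, 11.5 and 9.27 FPKM with DMSO, and rose by 0.93 (adjusted p = 0.00473, limma). Sod2, a mitochondrial target of the pathway, stood at 37.7, 33.9 and 34.1 FPKM with DOX, against 35.9, 33.2 and 34.6 FPKM with DMSO, and was not called. Of 22 tested Toll-like receptor genes 8 rose, but 2 to 5 did so without any 1 library other than DOX 1 (2 without DMSO 2) and 3 with equal-sum scaling. Tlr13, the receptor of bacterial ribosomal RNA, kept its call, with 20.5, 20.3 and 25.2 FPKM with DOX, against 9.6, 10.2 and 10.8 FPKM with DMSO (1.04).

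Receptors for attractants rose in 9 of 17 tested (8 to 9 without 1 library), while Cmklr1, described above, fell. The complement anaphylatoxin receptors C5ar1 and C3ar1 rose by 1.23 and 1.25, and C3ar1 had 35.6, 36.3 and 36.6 FPKM in the DOX libraries, against 15.8, 11.6 and 17 FPKM in the DMSO libraries. Ccr1, a receptor for inflammatory CC chemokines, had 164, 160.0 and 170.4 FPKM with DOX, against 107, 90.0 and 95.6 FPKM with DMSO, and rose by 0.75. Cxcr4, which retains cells in the marrow, had 113, 105 and 117 FPKM with DOX, against 137, 135 and 125 FPKM with DMSO, a difference of −0.24 that was not called (adjusted p = 0.0855, limma).

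Most of the immediate early genes tested rose. Of 22 tested AP-1 and EGR genes (25 listed) 14 rose and 0 fell, 14 to 15 without 1 library and 14 with equal-sum scaling, with a median of 0.94. Egr2 had 24, 20.9 and 21.7 FPKM in the DOX libraries, against 2.21, 1.6 and 2.15 FPKM in the DMSO libraries, and rose by 2.96 (SE 0.14, adjusted p = 6.15e-05, limma). EGR factors are zinc-finger proteins induced by growth factor signalling, and Egr1 was the most abundant of them, with 312, 347 and 368 FPKM with DOX, against 96.9, 113 and 111 FPKM with DMSO (1.67). Fosb had 18.1, 17 and 16.5 FPKM with DOX, against 1.36, 2.11 and 1.66 FPKM with DMSO and Fos had 114, 109 and 107 FPKM with DOX, against 31.2, 36.8 and 32 FPKM with DMSO, rises of 2.75 and 1.7. FOS proteins pair with JUN in AP-1. Atf3 and Ier3 rose by 1.08 and 1.1. Srf, the factor that activates many of these genes, was not called, with 19.8, 28.9 and 23.6 FPKM with DOX, against 30.1, 30.6 and 28.3 FPKM with DMSO. The CArG box that SRF binds was in 2 of 20 promoters of the list (10%), against 1.62% of 27025 genes.

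Feedback genes of the ERK pathway rose in 5 of 18 tested (3 without DOX 2, DOX 3 or DMSO 2, and 3 with equal-sum scaling). Dusp1, a phosphatase of MAP kinases, had 52.8, 48 and 40.6 FPKM with DOX, against 15.7, 15 and 17.1 FPKM with DMSO, and rose by 1.5 (adjusted p = 0.000438, limma). Rgs1, which accelerates the inactivation of G proteins, was among the 12 largest rises, with 117, 113 and 106 FPKM with DOX, against 16.6, 16.5 and 13.2 FPKM with DMSO (2.79).

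Receptors for cytokines rose more often than they fell. Of 21 tested cytokine receptor genes 8 rose (6 to 8 without 1 library) and 1 fell. Csf2rb, the common beta chain for interleukin 3 and GM-CSF, had 116, 127 and 120.3 FPKM in the DOX libraries, against 74.5, 75.2 and 69.4 FPKM in the DMSO libraries, and rose by 0.72 (adjusted p = 0.0015, limma). Csf1r, the macrophage growth factor receptor, had 128, 121 and 131 FPKM with DOX, against 80.9, 76.5 and 81.2 FPKM with DMSO, and rose by 0.66. Il10ra had 23.4, 22.1 and 23.4 FPKM with DOX, against 8.77, 8.35 and 6.14 FPKM with DMSO, and rose by 1.47. The chain that fell was Ifngr1, of the interferon gamma receptor, by 0.43 with 190.1, 184 and 172 FPKM with DOX, against 231, 257 and 247 FPKM with DMSO, and the call was lost without DMSO 2 or DMSO 3 (adjusted p up to 0.0575, limma).

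Downstream of these receptors, Jak2, the kinase bound to Csf2rb, had 28.1, 26.1 and 23.4 FPKM in the DOX libraries, against 12, 14.3 and 14.4 FPKM in the DMSO libraries, and rose by 0.88 (SE 0.11, adjusted p = 0.00385, limma). Of 26 tested genes for Janus kinases, STAT factors and their feedback inhibitors 4 rose and 0 fell, and 4 were called in each leave-out. Socs3, which blocks interleukin 6 receptor signalling, had 56.8, 59.7 and 46 FPKM with DOX, against 16.9, 18.6 and 19.8 FPKM with DMSO, and rose by 1.5. Cish, a target of STAT5, had 104, 101 and 104 FPKM with DOX, against 56.9, 45.2 and 60.1 FPKM with DMSO, and rose by 0.93. Pim1, a kinase gene induced by STAT5, rose by 0.54 with 389, 413 and 362 FPKM with DOX, against 248, 278 and 277 FPKM with DMSO. These 3 are classical targets of the pathway, whereas the STAT genes themselves were not among the calls; Stat6, the most abundant, had 66.3, 62.2 and 64.7 FPKM with DOX, against 55.7, 50.7 and 53.3 FPKM with DMSO (0.27, adjusted p = 0.0556, limma).

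Some receptors and enzymes of prostaglandins rose. Of 18 tested eicosanoid genes 7 rose and 1, Hpgd, fell. The rises numbered 5 to 7 without 1 library and 3 with equal-sum scaling. Ptgir and Ptger4, the receptors of prostacyclin and prostaglandin E2, rose by 1.59 and 1.21, and Ptgir had 13.8, 16 and 16 FPKM in the DOX libraries, against 4.28, 4.39 and 4.55 FPKM in the DMSO libraries. Ptgs2, the inducible cyclooxygenase, rose by 1.24 with 13.7, 11.1 and 9.62 FPKM with DOX, against 5.77, 3.26 and 3.92 FPKM with DMSO (adjusted p = 0.0101, limma).

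Lysosome genes rose in 13 of 45 tested and fell in 0, with 8 to 12 rises without 1 library (8 without DOX 3 or DMSO 2) and 7 with equal-sum scaling. Ctsd, the aspartic protease cathepsin D, had 2689.8, 2802 and 2647 FPKM in the DOX libraries, against 1219.7, 1047 and 1175 FPKM in the DMSO libraries, and rose by 1.24 (adjusted p = 0.000946, limma). Psap, the saposin precursor for sphingolipid breakdown, had 2378, 2481 and 2503 FPKM with DOX, against 1166, 924 and 1066 FPKM with DMSO, and rose by 1.23. Lamp1, a membrane glycoprotein of the organelle, had 601, 614 and 613 FPKM with DOX, against 534, 485 and 524 FPKM with DMSO, and was not called (0.24). The E-box CACGTG, within which TFEB family factors bind lysosome genes, was in 9 of 34 promoters of the list (26.5%), against 6.86% of 27025 genes and 10.4% of the 8280 tested genes. The window of Ctsd, at chr7:142387828-142388077 on the minus strand, is shown as the called gene of the list with the smallest adjusted p that holds the E-box, in capitals.
Ctsd: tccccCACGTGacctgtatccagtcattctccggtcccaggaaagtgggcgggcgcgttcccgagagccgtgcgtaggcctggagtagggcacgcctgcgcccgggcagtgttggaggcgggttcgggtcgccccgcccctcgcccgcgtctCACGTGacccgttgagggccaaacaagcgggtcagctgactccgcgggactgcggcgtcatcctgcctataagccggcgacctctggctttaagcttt
It holds 2 E-boxes. The sequence reads the same on both strands, so each was counted once.

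Of 27 tested iron genes 7 rose and 1 fell, and 6 and 1 were called in each leave-out. Fth1, ferritin heavy chain, was among the 10 most abundant entries, with 4236, 4695 and 4723 FPKM in the DOX libraries, against 2347, 2243 and 2558 FPKM in the DMSO libraries, and rose by 0.93 (adjusted p = 0.00582, limma). Slc40a1, the iron exporter ferroportin, had 39.1, 45.5 and 48.2 FPKM with DOX, against 21.9, 18.5 and 22.4 FPKM with DMSO, and rose by 1.04, and Hmox1, which breaks down heme, had 238, 217 and 255 FPKM with DOX, against 141, 117 and 106 FPKM with DMSO, and rose by 0.96. Tfrc, the transferrin receptor that takes iron up, was the gene that fell, by 0.49, with 66.5, 66.2 and 61.7 FPKM with DOX, against 89.7, 99.7 and 85.6 FPKM with DMSO.

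Ribosome biogenesis genes fell by small amounts. Of 47 tested 21 fell and 0 rose, and 46 had a negative fold change, with a median of −0.47. The count was 10 to 19 without 1 library (13, 10 and 12 without DMSO 1, 2 and 3) and 28 with equal-sum scaling. Nop2, a ribosomal RNA methyltransferase, had 27.3, 30.6 and 30.8 FPKM in the DOX libraries, against 46, 45 and 46.6 FPKM in the DMSO libraries, and fell by 0.62 (SE 0.08, adjusted p = 0.00396, limma). Dkc1, the pseudouridine synthase of box H/ACA particles, had 39.98, 42 and 36.4 FPKM with DOX, against 59.4, 57.2 and 59.9 FPKM with DMSO, and fell by 0.57. Mybbp1a, a nucleolar protein, had 62.8, 63.5 and 68.9 FPKM with DOX, against 92.8, 95.6 and 102 FPKM with DMSO, and fell by 0.57. Npm1, nucleophosmin, had 185, 211 and 215 FPKM with DOX, against 200.3, 232 and 242 FPKM with DMSO, which overlapped, and was not called.

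DNA replication genes fell in 16 of 46 tested and rose in 0, and 44 had a negative fold change, with a median of −0.31. This count rested on having all 6 libraries: it was 7, 8 and 7 without DOX 1, 2 and 3, and 5, 3 and 4 without DMSO 1, 2 and 3. Mcm5, a subunit of the replicative helicase, had 57.5, 60.9 and 59.9 FPKM in the DOX libraries, against 78.5, 80.5 and 85.6 FPKM in the DMSO libraries, and fell by 0.45 (SE 0.07, adjusted p = 0.00841, limma). Fen1, the flap endonuclease of lagging strands, had 56.2, 62.9 and 54 FPKM with DOX, against 80.3, 84.4 and 80.4 FPKM with DMSO, and fell by 0.5. Pcna, the sliding clamp, had 120.0, 136 and 136 FPKM with DOX, against 149, 170.1 and 162 FPKM with DMSO, a difference of −0.29 that was not called (adjusted p = 0.0695, limma). Mitosis genes hardly entered the calls, with 1 rise and 1 fall among 50 tested and a median of −0.08.

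The promoters of replication genes are known for sites of E2F factors, which switch on S phase. Either TTTCCCGC or TTTGGCGC, read on both strands, was in the 250 bases before the start for 7 of 38 genes of the list (18.4%), against 1.51% of 27025 genes and 3.15% of the 8280 tested genes. The windows of Mcm5, at chr8:75109259-75109508 on the plus strand, and Mcm6, at chr1:128359706-128359955 on the minus strand, are the 2 called genes with the smallest adjusted p that hold it, in capitals.
Mcm5: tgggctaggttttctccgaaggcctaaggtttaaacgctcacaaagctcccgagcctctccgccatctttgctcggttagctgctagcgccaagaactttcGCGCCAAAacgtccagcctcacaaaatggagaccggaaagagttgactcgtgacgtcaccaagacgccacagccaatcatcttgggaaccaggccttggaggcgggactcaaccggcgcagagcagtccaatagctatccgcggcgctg
Mcm6: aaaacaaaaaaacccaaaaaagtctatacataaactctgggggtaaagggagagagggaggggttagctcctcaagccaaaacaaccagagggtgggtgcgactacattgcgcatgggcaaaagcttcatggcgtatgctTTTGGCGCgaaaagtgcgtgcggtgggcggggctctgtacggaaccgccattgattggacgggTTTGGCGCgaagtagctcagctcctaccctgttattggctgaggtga
Mcm5 holds the motif once, on the other strand, and Mcm6 holds it at 110 and 47 bases from the window's end. Mcm6 had 99.1, 101.8 and 97.9 FPKM with DOX, against 114, 139.7 and 137.4 FPKM with DMSO, and fell by 0.38 (adjusted p = 0.041, limma). Its call was lost without any 1 library other than DMSO 1 (adjusted p up to 0.136, limma).

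Enzymes that load amino acids onto transfer RNA fell in 8 of 32 tested and rose in 0, with 27 negative fold changes. The count was 7 without DOX 1 and 1 to 5 without any other library (1 without DMSO 3). Lars, leucyl-tRNA synthetase, had 30.7, 31 and 29.4 FPKM in the DOX libraries, against 46.7, 51 and 53.6 FPKM in the DMSO libraries, and fell by 0.71 (adjusted p = 0.00247, limma). Among genes of the ATF4 amino acid response 5 of 27 fell and 3 rose, with 3 falls without DOX 2, DMSO 2 or DMSO 3. Cth, which makes cysteine by transsulfuration, had 16.9, 19.3 and 18.3 FPKM with DOX, against 29.5, 36.3 and 33.8 FPKM with DMSO, and fell by 0.83, and the arginine transporter gene Slc7a1 had 17.3, 18.3 and 20.3 FPKM with DOX, against 30.6, 33.2 and 37.3 FPKM with DMSO, and fell by 0.82. By contrast, 0 of 66 tested cytosolic ribosomal protein genes, 0 of 43 histone genes and 1 of 47 oxidative phosphorylation genes were called. In the histone list 40 of the 43 fold changes were negative and equal-sum scaling called 7 lower, so that list depends on the scaling.

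Stress and survival genes gave few stable calls. Of 25 tested p53 targets 8 rose and 1 fell, with 4 or 5 rises without DOX 2 or any 1 DMSO library and 4 with equal-sum scaling. Btg2, an antiproliferative regulator of messenger RNA decay, had 46.9, 58.7 and 59.8 FPKM in the DOX libraries, against 19.3, 15.5 and 17.9 FPKM in the DMSO libraries, and rose by 1.59 (adjusted p = 0.000487, limma). Ddit4, an inhibitor of mTORC1, had 143, 142 and 126 FPKM with DOX, against 81.1, 64.5 and 67.7 FPKM with DMSO, and rose by 0.94. In the BCL2 family 4 of 15 rose and 1 fell, with 1 or 2 rises without any 1 library other than DMSO 1 and 1 with equal-sum scaling. Bcl2a1b, an antiapoptotic member with near-identical copies in the mouse genome, rose by 1.04 and kept its call in each leave-out.

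Type I interferon response genes were called at about the background share: 4 of 43 rose and 1 fell, and 0 to 2 rises were called without 1 library. Among 28 antigen presentation genes 3 rose and 2 fell (0 falls without DMSO 2 or DMSO 3, and 1 without DOX 2 or DMSO 1), and the 3 rises were all of the class II pathway. Cd74, the invariant chain, had 73.8, 56.1 and 65.5 FPKM in the DOX libraries, against 25.6, 14.5 and 29.6 FPKM in the DMSO libraries, and rose by 1.5 (adjusted p = 0.00918, limma), and H2-Eb1 rose by 1.38 with 2.76, 3.05 and 3.23 FPKM with DOX, against 0.554, 0.302 and 0.81 FPKM with DMSO. H2-Ab1, from the same class, had 12.3, 16.6 and 12 FPKM with DOX, against 11.5, 9.84 and 13.2 FPKM with DMSO, which overlapped.

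Adhesion and cytoskeleton genes rose in part. The actin cytoskeleton list also holds nuclear lamin genes, and of its 34 tested genes 15 rose and 1 fell. The rises were 7 to 11 without 1 library (8, 9, 8 and 7 without DOX 2, DOX 3, DMSO 2 and DMSO 3) and 5 with equal-sum scaling. Actb, the beta-actin gene, was not called (0.28, adjusted p = 0.28, limma), and neither was Tmsb4x, which encodes thymosin beta 4 (0.52, adjusted p = 0.0668, limma). Lmna, which encodes the lamins of differentiated nuclei, had 39.7, 44.9 and 39.1 FPKM in the DOX libraries, against 19.5, 17.9 and 21.8 FPKM in the DMSO libraries, and rose by 1.03 (adjusted p = 0.00143, limma). Lmnb1, a lamin of proliferating cells, had 61.9, 65.9 and 66.7 FPKM with DOX, against 88.8, 85.2 and 85.5 FPKM with DMSO. It was the gene of the list that fell, by 0.41. Itgax, the integrin CD11c of dendritic cells and macrophages, had 29, 24.8 and 29.1 FPKM with DOX, against 14.2, 8.23 and 9.64 FPKM with DMSO, and rose by 1.32. Spp1, the secreted adhesion protein osteopontin, was among the 10 most abundant entries, with 4587, 5096 and 5061 FPKM with DOX, against 2655, 2279 and 2402 FPKM with DMSO, and rose by 1.01.

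Glucose and hypoxia genes rose in 6 of 28 tested and fell in 1, with 2 or 3 rises without any 1 library other than DOX 3 and 2 with equal-sum scaling. Ndrg1, induced by hypoxia and by differentiation, had 63.8, 58.4 and 68.6 FPKM in the DOX libraries, against 24.5, 27 and 27 FPKM in the DMSO libraries, and rose by 1.25 (adjusted p = 0.000373, limma). Slc2a1, the glucose transporter GLUT1, had 100.3, 86 and 93 FPKM with DOX, against 68.6, 57.2 and 63.7 FPKM with DMSO, and rose by 0.55. Ldha, lactate dehydrogenase A, had 793, 753 and 736 FPKM with DOX, against 874, 799.7 and 899.7 FPKM with DMSO, and was not called (−0.17).

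In other lists the share called higher was 39.1% for integrins and adhesion partners, 28.6% for TGF-beta genes and 18.2% for fatty acid genes. Over all entries it was 7.23%. Among chaperones 17.2% were called lower, against 4.54% of all entries. These counts depended on the libraries or the scaling. Integrins and adhesion partners had 9 rises and 2 falls of 23 (4 rises with equal-sum scaling, and 0 falls without any 1 DMSO library), chaperones 1 rise and 5 falls of 29 (1 to 3 falls without 1 library), TGF-beta genes 4 rises of 14 (1 to 3 without 1 library), and fatty acid genes 4 rises of 22 (1 with equal-sum scaling). Cholesterol genes had 2 rises of 31, Polycomb and histone-modifying enzymes 1 rise and 1 fall of 30, snoRNA host transcripts 1 and 1 of 17, and housekeeping genes 1 rise and 2 falls of 20.

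**Figure D3:**
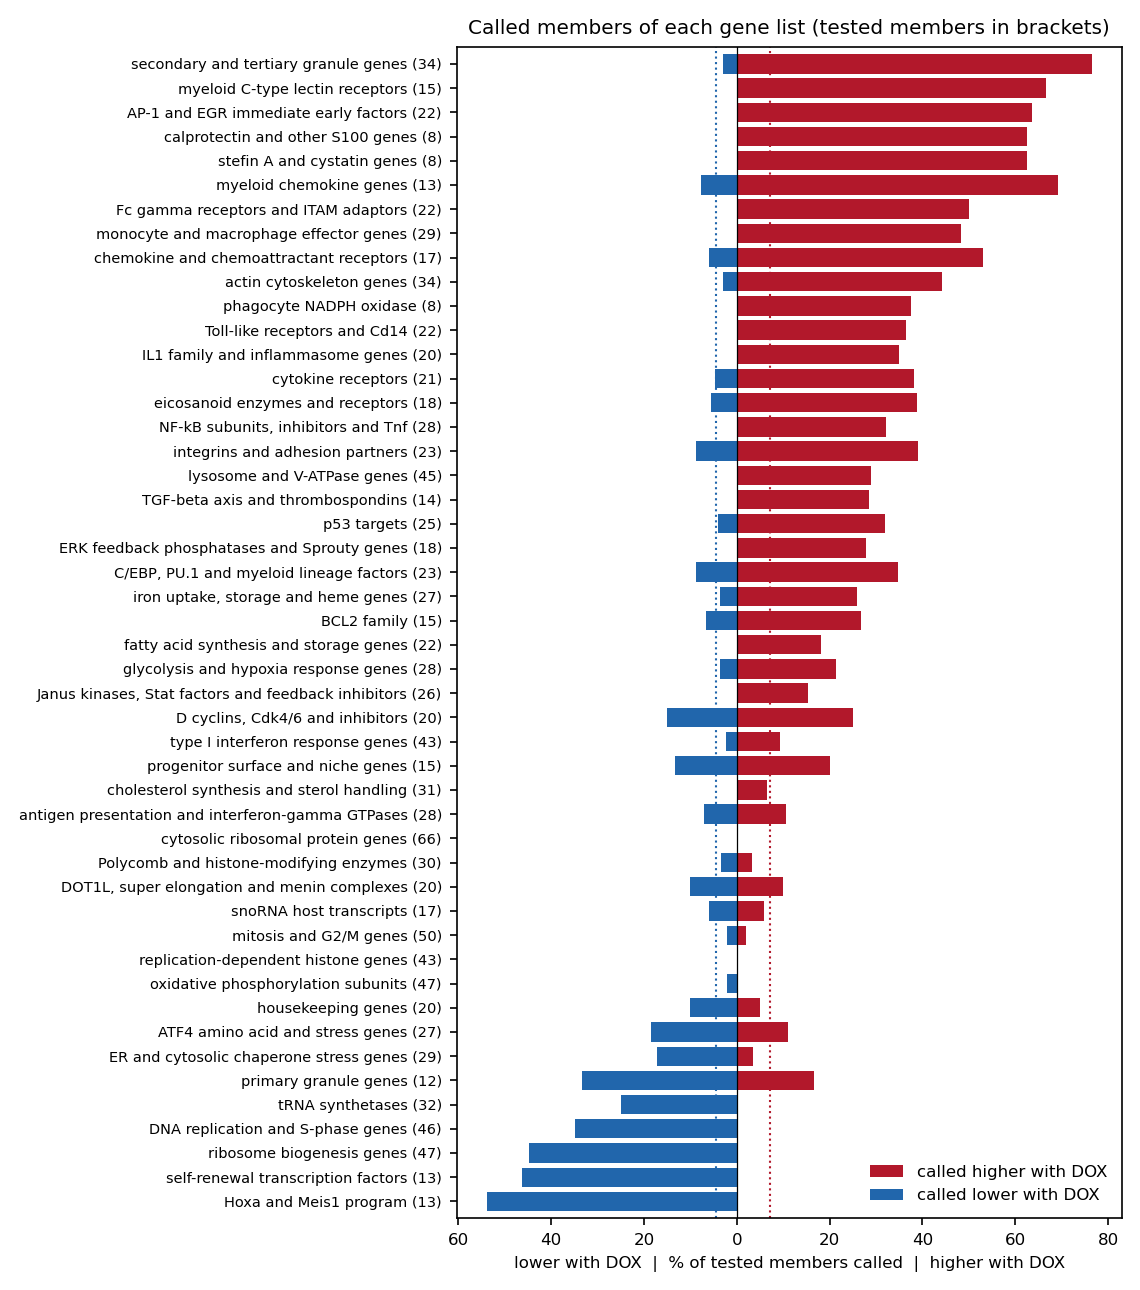
Share of the tested members of each gene list that were called higher (red, to the right) or lower (blue, to the left) with DOX; dotted lines mark 7.23% and 4.54%, the shares over all entries. Secondary and tertiary granule genes reach 76.5% higher, and the Hoxa and Meis1 program reaches 53.8% lower.

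Most markers of other blood and stromal cells were under the filter. The leukocyte gene Ptprc stood at 79.8, 85.3 and 78.7 FPKM with DOX, against 70.1, 71.9 and 60.3 FPKM with DMSO, while Kit was at 1.09 to 2.4 FPKM with DOX and 1.7 to 2.51 FPKM with DMSO, and Flt3 was at the lowest value, 0.01 FPKM, in all 3 DOX libraries and 1 DMSO library. Of the 14 B lymphoid markers with an entry 0 reached a mean of 1 FPKM, and their summed level was 0 to 0.417 FPKM with DOX and 1.72 to 4.97 FPKM with DMSO. Of 15 T and NK cell markers 13 were at the lowest value in all 6 libraries. Mast cell and basophil markers summed to 18.8 to 20.4 FPKM with DOX and 14 to 17.9 FPKM with DMSO, eosinophil markers to 4.61 to 5.06 FPKM and 2.14 to 2.65 FPKM, and erythroid and megakaryocyte markers to 27.7 to 32.5 FPKM and 17.3 to 26.3 FPKM. Stromal and endothelial markers summed to 19.2 to 22.8 FPKM with DOX and 26 to 28.6 FPKM with DMSO, of which Pecam1, also found on myeloid cells, made up the most, and Cxcl12, Tek, Emcn, Dcn and Lum were at the lowest value throughout. Dendritic cell markers summed to 265.2 to 304.7 FPKM with DOX and 183.8 to 215.3 FPKM with DMSO, and 2 of the 6 tested rose, Itgax and Cd74. Most of each sum was Bst2, which was not called. It had 174.9, 157 and 161.9 FPKM with DOX, against 148.6, 140.7 and 149.7 FPKM with DMSO. The defining markers Zbtb46, Cd209a and Ccr9 were at the lowest value in all 6 libraries. The part of such cells in the results was not tested. In a bulk sample fewer cells of a type and less RNA per cell cannot be told apart. Many neutrophil genes and some monocyte genes rose in the same libraries, and whether in the same cells was not tested.

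Some of the most extreme fold changes belonged to entries that share a locus or are very short. Of the tested entries 22.6% share their locus with another entry. Atp6v0c, a proton pump subunit, had 115, 102 and 114 FPKM in the DOX libraries, against 25.1, 0.0855 and 0.0447 FPKM in the DMSO libraries, and its pseudogene Atp6v0c-ps2, at the same locus, had 0.126, 0.0403 and 0.01 FPKM with DOX, against 52.2, 68.1 and 88.2 FPKM with DMSO. The sum of both was 115.3, 101.6 and 114.1 FPKM with DOX, against 77.2, 68.2 and 88.3 FPKM with DMSO, a ratio of 1.42. The gene rose by 5.17 and the pseudogene fell by 6.03, and both changes are uncertain, since near-identical copies can share reads. For Atp6v0c the call was lost without DOX 1, DOX 2, DOX 3, DMSO 2 or DMSO 3 (adjusted p up to 0.108, limma).

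Of the 109 small RNA entries 4 were called: 3 rose and 1 fell. Snord49a, a box C/D snoRNA, had 4330, 4781 and 1266 FPKM in the DOX libraries, against 0.01 FPKM in each DMSO library, while Snord49b at the same locus had 4006, 17692 and 2343 FPKM with DOX, against 7233, 2628 and 1763 FPKM with DMSO. Mir1892 had 572.7, 123.6 and 407.9 FPKM with DOX and Mir8091 had 167.5, 61.7 and 98 FPKM with DOX, and both were listed at 0.01 FPKM in all 3 DMSO libraries. Mir546 was listed at 0.01, 0.212 and 0.01 FPKM with DOX, against 98.4, 78.2 and 273.3 FPKM with DMSO. No fold is given against a group at the lowest value. A microRNA entry in a total RNA library counts fragments over the annotated hairpin, so it does not measure the mature microRNA. Mir1892 lies in the locus of Sptssa and Mir546 in that of Ctdsp2, whose own entry had 14.8, 14.5 and 13.1 FPKM with DOX, against 7.46, 7.57 and 10.5 FPKM with DMSO. Ctdsp2 was called higher, a call lost without any 1 library other than DMSO 3 (adjusted p up to 0.101, limma).

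The mature microRNAs of these 3 entries (RefSeq, GRCm38.p6) lie at chr12:54645943-54645964 on the minus strand, chr19:41588691-41588712 on the plus strand and chr10:126998471-126998486 on the plus strand. They are shown because the entries are the only called microRNAs, with the seed (bases 2 to 8) in capitals.
mmu-miR-1892: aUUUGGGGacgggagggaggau
mmu-miR-8091: aGGAGUGAgugguaagcuggug
mmu-miR-546: aUGGUGGCacggaguc
The 3 seeds differ, so the entries form no seed family.

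**Figure D4:**
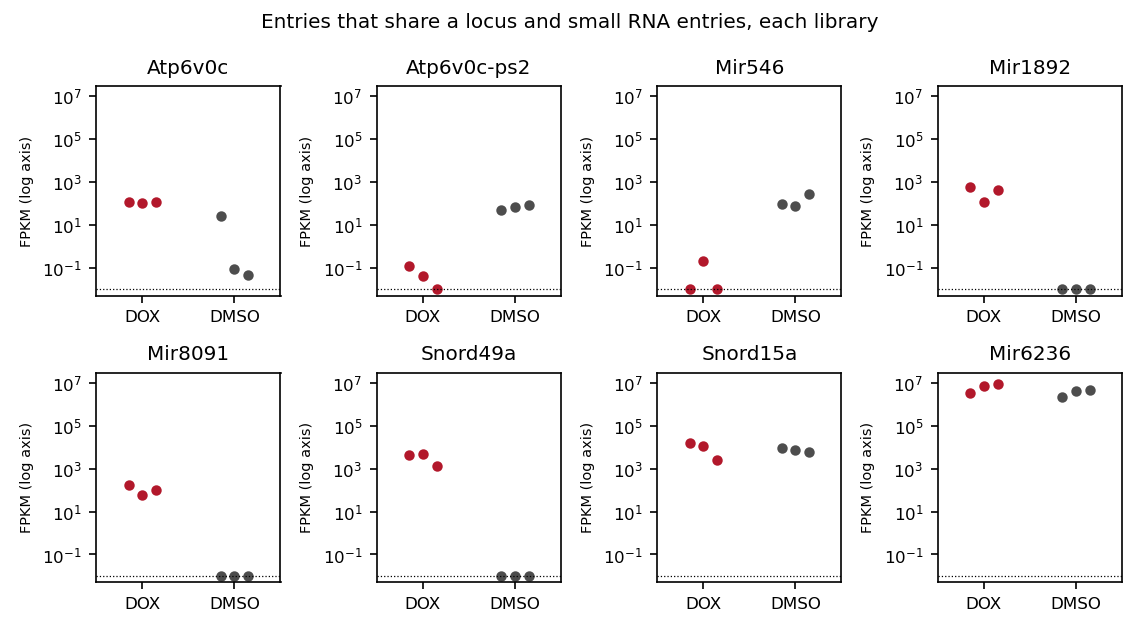
FPKM of 8 entries in each library on a log axis, DOX on the left and DMSO on the right; the dotted line is 0.01 FPKM, the lowest value of the table. Atp6v0c and Atp6v0c-ps2 are high in opposite groups, Mir1892, Mir8091 and Snord49a sit on the line in all 3 DMSO libraries, and Snord15a and Mir6236 overlap or spread widely.

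The MLL-AF10 cells of the series offer the closest comparison: the same host gene joined to another DOT1L-binding partner, again DOX against DMSO with 3 libraries each and no shared controls, though labelled as polyA RNA. Their table holds log2 values made by a transformation that the sources used here do not state, so sizes are given side by side and not compared. Of 10553 genes tested there 10.6% were higher and 9.17% were lower with DOX. With the replicate numbers as a block, the lower genes numbered 1453 in place of 968, though the labels do not say that same-numbered libraries are pairs. Among 9773 genes tested in both tables, 331 were called higher in both, 46.1% of the 718 higher in MLL-AF9 and 31% of the 1068 higher in MLL-AF10. Called lower in both were 147, 32.3% of the 455 lower in MLL-AF9 and 17.3% of the 852 lower in MLL-AF10. Called higher in MLL-AF9 and lower in MLL-AF10 were 32, and the reverse held for 11. With the block these 4 counts were 405, 196, 54 and 24.

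The shared falls included the fusion's central targets. Hoxa9, at a difference of −1.57 in MLL-AF9 cells, differed by −0.71 in MLL-AF10 cells, where it averaged 8.8 ± 0.0226 with DOX and 9.51 ± 0.0274 with DMSO (SD, n = 3 each) on the deposited log2 scale. Meis1, at −1.73 in MLL-AF9 cells, differed by −0.59 in MLL-AF10 cells, averaging 7.42 ± 0.0395 with DOX and 8.01 ± 0.0278 with DMSO (SD, n = 3 each). Hpgd differed by −3.74 in MLL-AF9 cells and by −1.2 in MLL-AF10 cells, where it averaged 11.3 ± 0.111 with DOX and 12.5 ± 0.108 with DMSO (SD, n = 3 each). Kmt2a differed by −1.16 in MLL-AF9 cells and by −0.59 in MLL-AF10 cells, averaging 11.2 ± 0.0648 with DOX and 11.7 ± 0.116 with DMSO (SD, n = 3 each). All 4 were called lower in both tables (limma). Among the rises Ngp differed by 2.98 in MLL-AF9 cells and by 0.98 in MLL-AF10 cells, where it averaged 8.98 ± 0.335 with DOX and 8.01 ± 0.128 with DMSO (SD, n = 3 each), and Jak2 by 0.88 and 0.36, averaging 9.73 ± 0.0266 with DOX and 9.37 ± 0.0227 with DMSO (SD, n = 3 each) in MLL-AF10 cells.

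Counts for 5 lists are set side by side, with no test of the difference. Of 22 immediate early genes 14 were higher and 0 lower in MLL-AF9 cells, beside 4 higher and 2 lower of 18 in MLL-AF10 cells (6 and 2 with the block). Fos was called in MLL-AF10 cells with the block alone: its difference of 0.16 had an adjusted p of 0.317 without the block and 0.000295 with it (limma). For Fos DOX was higher in all 3 same-numbered pairs. Of 13 chemokine genes 9 were higher and 1 lower in MLL-AF9 cells, beside 1 higher and 2 lower of 8 in MLL-AF10 cells (1 and 3 with the block). Of 47 ribosome biogenesis genes 21 were lower in MLL-AF9 cells, beside 1 higher and 3 lower of 48 in MLL-AF10 cells (1 and 6 with the block). Primary granule genes were 2 higher and 4 lower of 12 in MLL-AF9 cells, beside 7 higher and 1 lower of 12 in MLL-AF10 cells (8 and 1 with the block). Among them Mpo was called in opposite directions, at −0.91 in MLL-AF9 cells and 0.2 in MLL-AF10 cells (adjusted p = 0.0486, limma). In MLL-AF10 cells DOX was higher for Mpo in all 3 same-numbered pairs, though the groups overlapped. Secondary and tertiary granule genes were mostly higher in both, 26 higher and 1 lower of 34 in MLL-AF9 cells and 19 higher and 2 lower of 27 in MLL-AF10 cells (20 and 2 with the block).

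**Figure D5:**
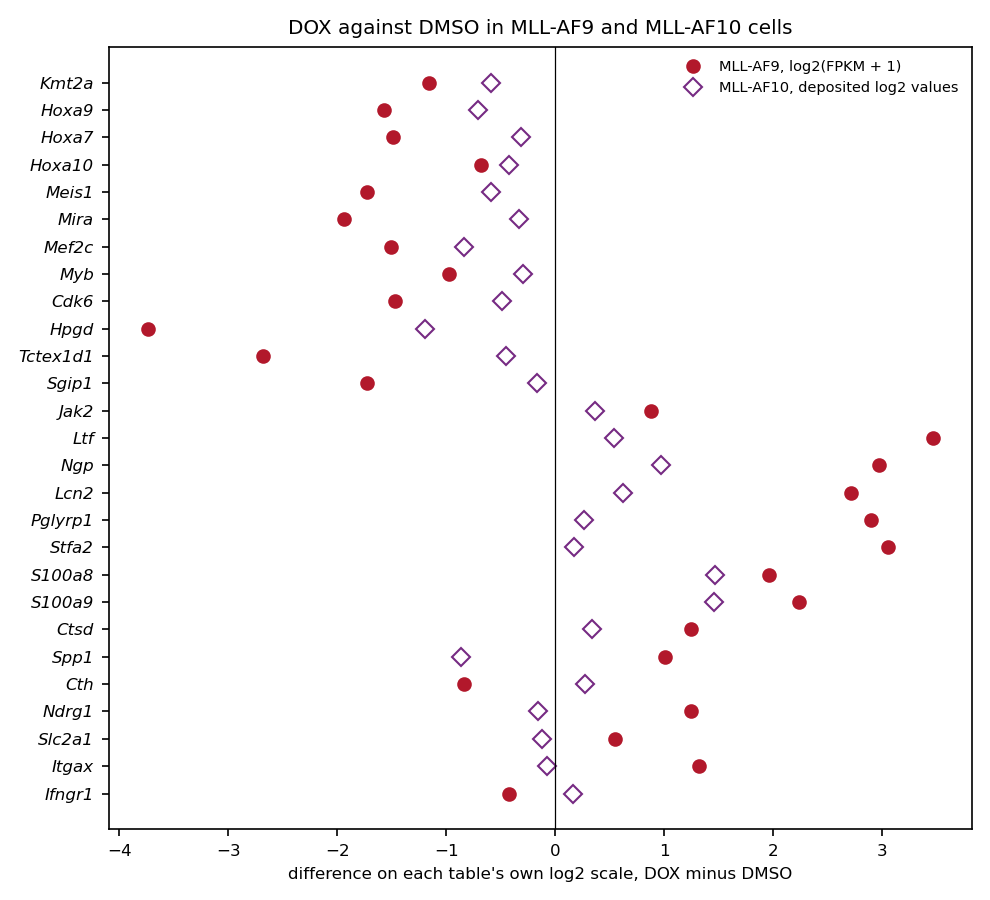
DOX minus DMSO difference of 27 genes on each table's own log2 scale, MLL-AF9 as filled circles and MLL-AF10 as open diamonds; the scales differ, so only sides of 0 can be set side by side. Hoxa9, Meis1, Hpgd and Kmt2a lie left of 0 in both, Ltf and Ngp right of 0 in both, and Spp1, Cth, Ndrg1, Slc2a1, Itgax and Ifngr1 lie on opposite sides.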

How the data were processed

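Per the labels' protocols, total RNA was made into libraries with the Illumina TruSeq RNA kit. Bowtie 0.12.2 and the mm9 genome are listed per the submitters' processing notes, which do not name a counting method. Of 23137 matched symbols 98.9% overlap their GRCm38.p6 gene and of 20754 only 12.7% their mm9 gene, so the loci of the deposited table are printed as GRCm38, with 1 added to starts counted from 0.

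The MLL-AF9 values are FPKM that the authors computed and deposited, and 9753 entries stood at 0.01, the lowest value, in all 6 libraries. FPKM is not a count, so limma 3.58.1 (R 4.3.3) with a mean-variance trend was fitted to log2(FPKM + 1) of entries with a mean of at least 1 FPKM, with no block, and p-values were adjusted by Benjamini-Hochberg over all entries tested. For MLL-AF10 the authors deposited log2 values, which were tested as they stand where the gene's mean reached 3.32. Deviations of same-numbered MLL-AF10 libraries correlated at 0.397, 0.199 and 0.194. DOX 2 with DMSO 3 and DOX 3 with DMSO 2 correlated at 0.17 and 0.175, so only number 1 stood apart. The labels say nothing of pairing, and the block rests on the shared numbers.

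Named genes are those of the fusion's core, the 12 largest rises and falls among called entries with separate groups and at least 10 FPKM, and for each list up to 5 called members with the smallest adjusted p, up to 2 that went against the majority and up to 2 uncalled members with the highest mean. Rhoj, Mcm6, Mmp8, Pecam1, Kit, Flt3, Ptprc, Cx3cr1, Mrc1 and the neighbours of small RNA entries were chosen after their values were seen. Members and lists were chosen with earlier results of these data known. The fits were checked on simulated data. Alternatives were other pseudocounts, filters, scalings and variance models, the replicate block and each library left out. Promoters and microRNAs come from RefSeq (GRCm38.p6), and 5 motifs were searched in the 250 bases before each start, a gene being counted once if at least 1 of its starts holds the motif.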

Additional observations from a re-analysis of the deposited data

Results flagged for a closer look

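For 9 of the genes described above every DOX library lay on 1 side of every DMSO library in MLL-AF9 cells and on the opposite side in MLL-AF10 cells. These differences between the fusions were not tested, since the 2 tables were normalized apart, and all values are log2 differences, DOX minus DMSO, on each table's own scale.

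Spp1 (osteopontin) was called in both tables, at 1.01 in MLL-AF9 cells and −0.86 in MLL-AF10 cells. So were Itgax (CD11c), at 1.32 and −0.07, Ndrg1, at 1.25 and −0.15, and Slc2a1 (GLUT1), at 0.55 and −0.12. Of these Itgax was low in MLL-AF10 cells, averaging 4.16 with DOX and 4.24 with DMSO, where the filter was 3.32. Cth and Ifngr1 went the other way, Cth at −0.83 in MLL-AF9 cells and 0.27 in MLL-AF10 cells, and Ifngr1 at −0.43 and 0.16, with both called in both. Clec4d (1.15 and −0.06) and Tnfaip3 (0.93 and −0.08) were called in MLL-AF9 cells alone. Prtn3 (−0.23 and 0.24) was called in MLL-AF10 cells alone. Mpo (−0.91 and 0.2) was called in both tables in opposite directions, but its MLL-AF10 groups overlapped.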

How the results depend on the processing

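Prss57 apart, 126 genes named above were called in MLL-AF9 cells, and 112 of them kept the call without any 1 library. Over all 1281 calls 519 (40.5%) did so. Many named genes were chosen for a small adjusted p or a large change, so their share does not stand for all calls. None of the 126 changed direction under any alternative that tested it. They lost 0 to 7 calls under each alternative other than leaving out DMSO 2 or DMSO 3, which cost 12 each. The total of 1281 calls became 596 to 996 without 1 library, the 787 higher 422 to 621, the 494 lower 174 to 375, the 213 higher by at least 1 170 to 207, and the 70 lower by at least 1 50 to 77. Same-numbered MLL-AF9 libraries did not deviate together (r = 0.0205, −0.00711 and −0.00706; DOX 2 and DOX 3 correlated best with another number), and a replicate block gave 781 calls, 527 higher and 254 lower. Equal-sum scaling gave 360 higher, 808 lower and 109 lower by at least 1. A pseudocount of 5 left 110 higher and 23 lower by at least 1, since it shrinks the change of low genes. The other alternatives gave 1051 to 1402 calls. The 2089 MLL-AF10 calls became 1307 to 2395 without 1 library, the 1121 higher 713 to 1238 and the 968 lower 589 to 1157. The replicate block gave 3102, with 1649 higher and 1453 lower. Of the MLL-AF10 genes printed above it changed the call of Fos alone.

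Some values that were not called changed sign. Equal-sum scaling put Cd14 at −0.16, Mllt10 at −0.16, Snord15a at −0.082, Sod2 at −0.14 and Spi1 at −0.071. Quantile normalization put Cd14 at −0.043, Snord15a at −1.11 and Spi1 at −0.048, and Mllt10 was at −0.000245 with a pseudocount of 5 and −0.00314 with equal upper quartiles. Without 1 library Cd14 ranged between −0.038 and 0.092, F13a1 between −0.038 and 0.0200, Kit between −0.31 and 0.043, Mllt10 between −0.064 and 0.061, Snord15a between −0.46 and 0.92, Snord49b between −0.074 and 1.38 and Sod2 between −0.022 and 0.053. FPKM tables keep no absolute depth, and DOX 1 was the shallowest library.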
